A study of Homo sapiens with 6 samples.

Results

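The insulin-like growth factor 2 gene IGF2, its clearance receptor gene IGF2R and the genes of the 7 IGF binding proteins, IGFBP1 to IGFBP7, were examined in OVCAR3 cells after NUF2 knockdown. These 9 genes were the rows of the deposited RNA-seq table that carried their symbols, among 19973 genes listed. OVCAR3 is an established human ovarian cancer cell line, and NUF2 is a subunit of the Ndc80 complex, which attaches chromosomes to the mitotic spindle. Cells of the control group received a negative control hairpin (shNC, genotype labelled WT) and cells of the knockdown group received a hairpin against NUF2 (shNUF2), both followed by puromycin selection of stable lines. Each group had 3 libraries of total RNA, prepared with a stranded mRNA kit, and the labels give no dose or time point. The hairpin was expressed from a U6 promoter, 1 NUF2 hairpin was used, and whether a line was a clone or a pool is not given in the sources used here. Nothing in the labels says that the libraries of a group came from separate cultures, so the p-values measure the spread between these libraries, which may be technical.

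IGF2 is a secreted growth factor that signals through the IGF1 receptor and the insulin receptor. IGF2R, also known as the cation-independent mannose 6-phosphate receptor, carries IGF2 and lysosomal enzymes to lysosomes and does not signal as a kinase. IGFBP1 to IGFBP6 bind IGFs with high affinity in the extracellular space and can withhold them from their receptors or deliver them, whereas IGFBP7 binds IGFs weakly. Proteases that cleave the binding proteins release the bound ligand, and several binding proteins also act on cells without IGF.

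Of the 9 genes, 6 had enough reads to be tested and all 6 rose with shNUF2, from 1.20-fold for IGF2R to 2.36-fold for IGFBP3 (ratios of mean CPM, defined with NUF2). IGFBP3 was the most abundant of them in both groups, and it rose from 345 ± 39.2 to 793 ± 57.9 FPKM (fragments per kilobase of exon, scaled to library depth, mean ± SD, n = 3 in each group). IGFBP6 rose 1.99-fold, IGFBP7 rose 1.58-fold, IGFBP1 rose 1.39-fold and IGFBP4 rose 1.24-fold. IGF2, IGFBP2 and IGFBP5 had 1 read among them in the 6 libraries. Here "rose" and "fell" mean an adjusted p under 0.05 in edgeR's quasi-likelihood test over all 12874 genes tested, with Benjamini-Hochberg adjustment. Of these 12874 genes, 33.9% rose and 33.8% fell, so a call alone was common in this comparison. The median log2 fold change of the 6 tested genes was 0.56, beside -0.01 over all genes tested. In bulk RNA, more cells that express a gene and more of its RNA per cell cannot be told apart, nor can fewer cells and less RNA per cell.

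The libraries held 13057534 to 16995452 reads counted on genes. Reads on NUF2 numbered 903, 1096 and 1092 under shNC, against 281, 290 and 384 under shNUF2. Its level was 65.2 ± 2.94 CPM (reads scaled to the TMM-adjusted depth of the library) with shNC and 22.9 ± 2.40 CPM with shNUF2 (log2 fold change -1.51, SE 0.08, edgeR adjusted p = 2.17e-15), and the groups did not overlap. The hairpin's target of 21 bases is shown to place the knockdown relative to the IGF system genes.
shNUF2 target, chr1:163328272-163328292, GRCh38, plus strand: cttcttaccattcagcaattt
In GENCODE release 29 this sequence occurred in 9 transcripts, all of NUF2, and lay within the coding sequence of 7 of them. It occurred in 0 of the 49 annotated transcripts of the 9 IGF genes. Of 12 epithelial ovarian carcinoma markers, 11 had more than 3 reads in a library, and the 12 summed to 1556 to 1654 CPM with shNC and 1735 to 1845 CPM with shNUF2. Of the 9 tested markers of this list, 5 rose, in the same direction as the IGFBP genes. They were KRT8 (log2 fold change 1.04, from 337 to 692 CPM), CLDN4 (1.14), EPCAM (0.69, from 3.39 to 5.45 CPM), PAX8 (0.64) and KRT18 (0.55). MSLN (-0.75), MUC16 (-0.75) and KRT7 (-0.22) fell, and CDH1 did not pass the test. KRT8, KRT7 (668 CPM with shNC) and MSLN (392 CPM with shNC) made up most of the sum in both groups. The tight junction gene CLDN3 had 0 reads, and the ovarian serous marker WT1 had at most 7 reads in any library. The epithelial genes KRT19, with 1 to 8 reads, and CDH1, with 9 to 33 reads, were also near the lower limit, and the identity of the line was not tested beyond these markers. Markers of other cell types had lower sums. The 7 fibroblast markers summed to 84.0 to 90.6 CPM with shNC and 69.0 to 76.3 CPM with shNUF2, with COL1A2, LUM and PDGFRA at 3 reads or fewer in every library. COL1A1 made up most of this sum and fell (81.7 to 62.4 CPM), whereas DCN rose from 3.66 to 8.48 CPM (log2 fold change 1.22, edgeR adjusted p = 7.00e-06) and COL3A1, which was not tested, had at most 2 reads with shNC and 5 to 15 with shNUF2. The 5 endothelial markers summed to 2.13 to 3.45 CPM with shNC and 4.82 to 6.46 CPM with shNUF2, with KDR at 3 reads or fewer. The 5 leukocyte markers summed to 1.22 to 2.25 CPM with shNC and 3.64 to 5.92 CPM with shNUF2, with CD3E and CD68 at 3 reads or fewer. The endothelial and leukocyte sums, DCN and these 5 epithelial markers were higher with shNUF2, in the same direction as the IGFBP genes, and their part in those results was not tested.

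IGFBP3 (ENSG00000146674) encodes the main IGF carrier of the circulation, which also acts on cell growth and survival. The table places it on the minus strand of chromosome 7 at 45912245 to 45921874 of GRCh38, with a listed length of 4571 bp. Promoter windows from RefSeq (GRCh38.p14, 250 bases before to 50 bases after a start site) were matched by symbol for 6 of the 9 genes, in 8 windows. IGF2, IGFBP1 and IGFBP7 were not matched. The windows of IGFBP3 and IGFBP6 are shown because these genes had the highest fold changes of the 9, with capitals marking every match to the 6 motifs described next.
IGFBP3, chr7:45921223-45921522, minus strand: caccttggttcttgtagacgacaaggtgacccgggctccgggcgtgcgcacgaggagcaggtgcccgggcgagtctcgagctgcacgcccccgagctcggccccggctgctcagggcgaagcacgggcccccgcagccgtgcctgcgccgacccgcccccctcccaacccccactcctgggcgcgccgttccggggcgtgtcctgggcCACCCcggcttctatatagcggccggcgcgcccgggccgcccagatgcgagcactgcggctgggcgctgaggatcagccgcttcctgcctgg
IGFBP6, chr12:53097417-53097716, plus strand: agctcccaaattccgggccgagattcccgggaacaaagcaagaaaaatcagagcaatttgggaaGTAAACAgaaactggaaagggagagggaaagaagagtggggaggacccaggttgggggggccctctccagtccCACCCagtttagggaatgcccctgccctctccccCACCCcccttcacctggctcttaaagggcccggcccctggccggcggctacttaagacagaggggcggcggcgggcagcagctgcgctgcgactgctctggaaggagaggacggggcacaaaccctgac
The start site lay 602 bp inside the listed IGFBP3 gene and 231 bp inside the listed IGFBP6 gene. The IGFBP3 window had a GC content of 74.7% and the IGFBP6 window 61.7%, beside a median of 58.7% over all 35116 windows.

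The motifs were searched on both strands of all windows, as fixed strings. The 8 windows include more than 1 of IGFBP2 and that of IGFBP5, genes with too few reads to be tested. IGFBP1 and IGFBP7, which rose, had no window. Counts over the 8 are therefore not those of the genes that rose. The FOXO element GTAAACA was found in 3.42% of all windows and in 1 of the 8 windows of the IGF genes, that of IGFBP6, starting 186 bases before the start site. The Kruppel-like factor box CACCC was found in 59.9% of all windows and in 7 of the 8. The insulin response sequence CAAAACA (4.92% of all windows), the AP-1 element TGANTCA (7.71%), the ATF4 element TGATGNAA (3.62%) and the TEAD element CATTCCA (4.18%) were found in 0 of the 8. These are matches of letters in a short window and describe no binding.

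Reads on IGFBP3 numbered 24966, 22187 and 26419 under shNC, against 54083, 44490 and 54027 under shNUF2. Its FPKM were 387, 309 and 340 with shNC and 858, 745 and 776 with shNUF2. All 3 shNUF2 libraries lay above all 3 shNC libraries, with the highest level in library 1 of each group. In CPM it rose from 1560 ± 185 to 3676 ± 303 (log2 fold change 1.24, SE 0.06, edgeR adjusted p = 7.77e-16). This was the only 1 of the 9 genes beyond the study's thresholds of a log2 fold change above 1 and an unadjusted p under 0.05, which 9.41% of the genes tested passed. None of the 9 was below -1 at that p, as 4.16% of the genes tested were. IGFBP3 ranked 55th by mean FPKM of all genes listed with shNC and 18th with shNUF2, and its share of all counted reads was 0.157% and 0.363%. By log2 fold change, 858 genes (6.66% of those tested) were higher than IGFBP3.

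IGFBP6 (ENSG00000167779, plus strand of chromosome 12, 53097436 to 53102345, listed length 1346 bp) encodes the binding protein that prefers IGF2 over IGF1. Its read counts were 862, 880 and 1110 under shNC, against 1665, 1499 and 1788 under shNUF2. Its FPKM were 45.4, 41.6 and 48.5 with shNC and 89.7, 85.3 and 87.2 with shNUF2. The groups were far apart relative to their spread, and the lowest shNUF2 library was well above the highest shNC library. In CPM it rose from 60.1 ± 4.75 to 119 ± 4.11 (log2 fold change 0.99, SE 0.06, edgeR adjusted p = 2.94e-14). This value lay just inside 1, so that IGFBP6 missed the study's fold threshold by less than its own SE. It was above 1 where at least 1 CPM was required in every library (1.01), without shNC replicate 3 (1.04) and without shNUF2 replicate 2 (1.01). IGFBP6 ranked 826th by FPKM with shNC and 363rd with shNUF2.

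IGFBP7 (ENSG00000163453, minus strand of chromosome 4, 57030773 to 57110385, listed length 1930 bp) encodes a matrix-associated relative of the other binding proteins. Its read counts were 248, 303 and 469 under shNC, against 485, 478 and 415 under shNUF2. On the CPM scale its levels were 17.4, 18.96 and 27.3 with shNC and 36.0, 36.8 and 27.6 with shNUF2. The shNC library 3 and the shNUF2 library 3 lay next to each other, away from the other two libraries of their groups. On the FPKM scale, in which no TMM factor enters, the level of shNC library 3 was 14.3 and that of shNUF2 library 3 was 14.1, so the groups overlapped. IGFBP7 rose from 21.2 ± 5.29 to 33.5 ± 5.09 CPM (log2 fold change 0.64, SE 0.13, edgeR adjusted p = 6.41e-05). The log2 fold change was 0.87 without shNC replicate 3 and 0.77 without shNUF2 replicate 3, and lay between 0.52 and 0.59 when any of the other 4 libraries was left out. Of the exon bases of IGFBP7 in GENCODE 29, 14.0% lay opposite exons of POLR2B, an RNA polymerase II subunit gene, and 4.87% opposite IGFBP7-AS1. The library kit keeps strand, but the strand setting of the counting is not given in the sources used here, so reads of these genes may not have been told apart. POLR2B had 119 ± 5.33 CPM with shNC and 117 ± 7.45 CPM with shNUF2 (log2 fold change -0.02, SE 0.05, edgeR adjusted p = 0.76).

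IGFBP1 (ENSG00000146678, plus strand of chromosome 7, 45888360 to 45893660, listed length 1642 bp) encodes a binding protein whose transcription in liver is lowered by insulin. Its read counts were 824, 936 and 893 under shNC, against 962, 1048 and 1224 under shNUF2. Its FPKM were 35.6, 36.3 and 32.0 with shNC and 42.5, 48.9 and 49.0 with shNUF2. The groups did not overlap, and library 1 was the lowest of the shNUF2 group. In CPM it rose from 56.1 ± 3.68 to 77.8 ± 5.58 (log2 fold change 0.47, SE 0.06, edgeR adjusted p = 3.23e-07). IGFBP1 and IGFBP3 are neighbours on chromosome 7, 18.6 kb apart in the table on opposite strands, with no other listed gene between them. Both rose, by a log2 fold change of 0.47 and of 1.24.

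IGFBP4 (ENSG00000141753, plus strand of chromosome 17, 40443450 to 40457725, listed length 2205 bp) encodes a binding protein known mainly as an inhibitor of IGF action and as the substrate of the protease PAPP-A. Its read counts were 4257, 4472 and 5092 under shNC, against 4950, 4717 and 5325 under shNUF2. Its FPKM were 137, 129 and 136 with shNC and 163, 164 and 159 with shNUF2. The libraries of each group lay close together and the groups did not overlap. On the CPM scale it rose from 292 ± 10.5 to 361 ± 6.72 (log2 fold change 0.31, SE 0.04, edgeR adjusted p = 4.13e-07).

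IGF2R (ENSG00000197081, plus strand of chromosome 6, 159969082 to 160113507, listed length 22613 bp) had read counts of 3286, 3609 and 3670 under shNC, against 3634, 3421 and 4051 under shNUF2. Its FPKM were 10.3, 10.2 and 9.55 with shNC and 11.6, 11.6 and 11.8 with shNUF2. The shNUF2 libraries were nearly equal and all lay above the shNC libraries. On the CPM scale it rose from 223 ± 9.14 to 267 ± 3.62 (log2 fold change 0.26, SE 0.04, edgeR adjusted p = 8.91e-06). This was the lowest fold change of the 6 tested genes, and 32.4% of all genes tested had a higher one. On the CPM scale, all 6 tested genes had every shNUF2 library above every shNC library, as had 35.2% of the genes tested.

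**Figure D1:**
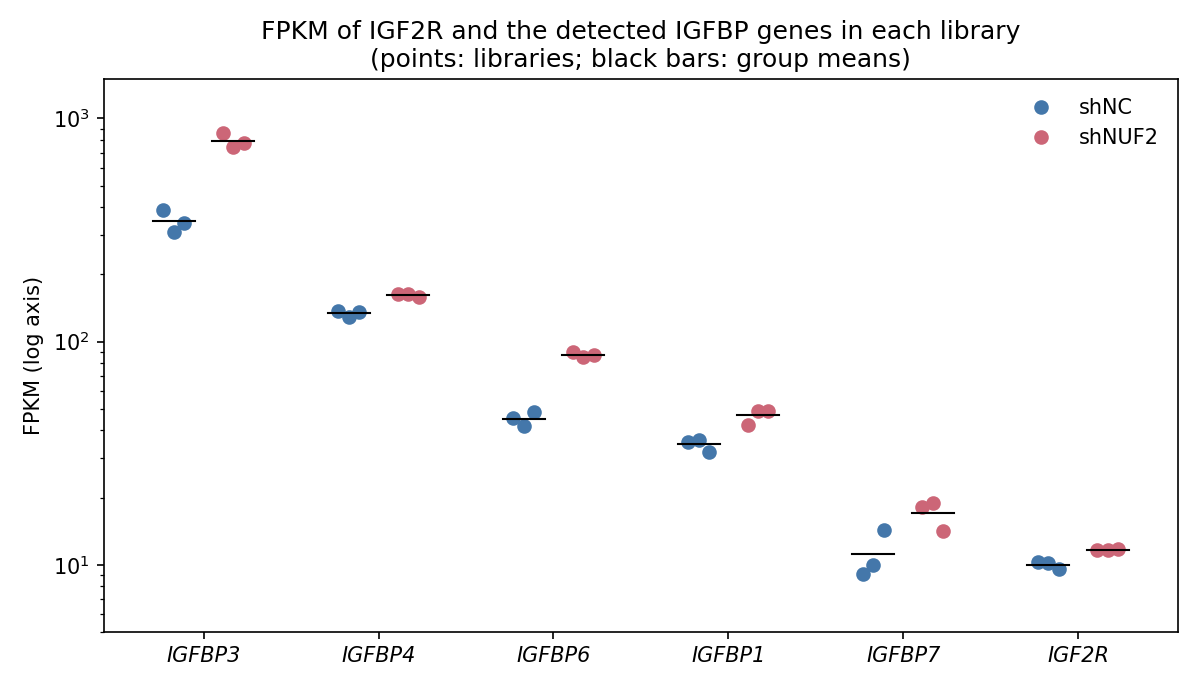
FPKM (log axis) of the 6 detected genes in each of the 3 shNC libraries (blue) and 3 shNUF2 libraries (red), with black bars at the group means. The shNUF2 points lie above the shNC points for every gene but IGFBP7, where the shNUF2 library at 14.1 FPKM lies below the shNC library at 14.3 FPKM.

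**Figure D2:**
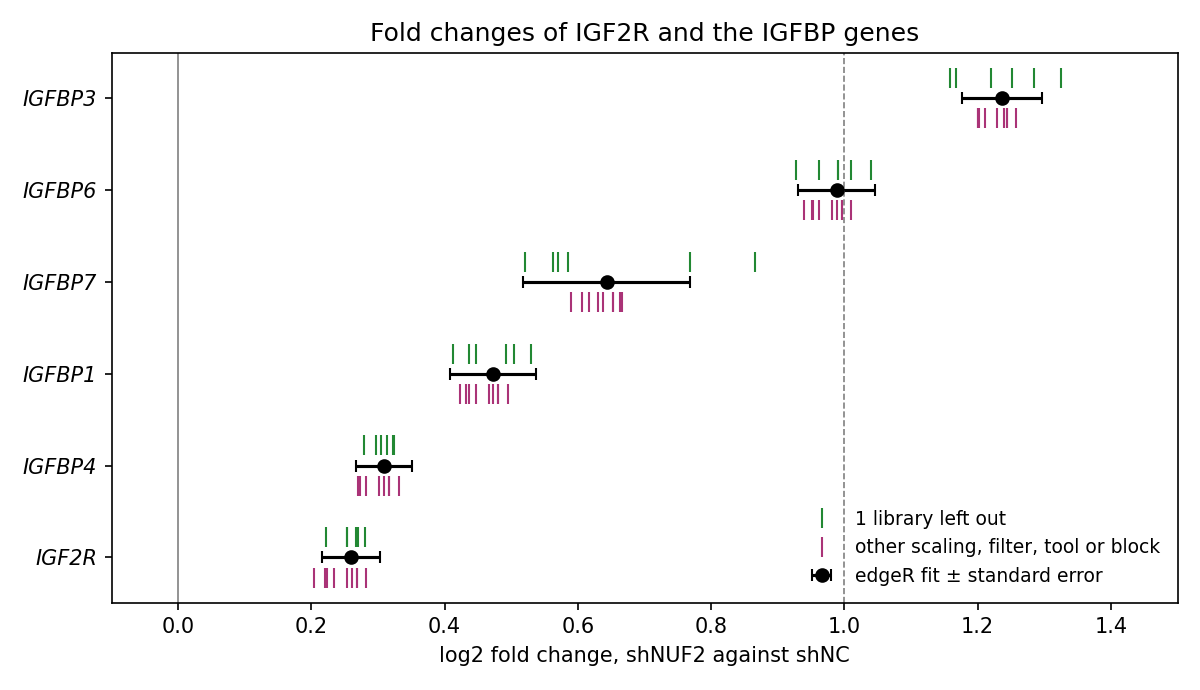
Log2 fold change of shNUF2 against shNC for the 6 tested genes, with edgeR estimates and standard errors (black), estimates with 1 library left out (green) and estimates under another scaling, filter, tool or block (purple). The dashed line marks a log2 fold change of 1; only IGFBP6, at 0.99, has estimates on both sides of it, and the widest range, 0.52 to 0.87, belongs to IGFBP7.

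IGF2, the ligand itself, had 0 reads in all 6 libraries (ENSG00000167244, minus strand of chromosome 11, 2129112 to 2141238). A count of 0 allows up to 3 reads per library, or 0.0282 to 0.0367 FPKM over its 6259 bp, for counting error only. In GENCODE 29, however, 73.7% of the exon bases of IGF2 are shared on the same strand with ENSG00000284779, another gene model of the name IGF2, and 20.9% with the readthrough gene INS-IGF2. Both of these, the first listed under the name AC132217.2, also had 0 reads. The GENCODE 29 model of IGF2, with 6979 exon bases, reaches to 2149603 and so differs from the listed row. These shares may therefore not hold for the row that was counted. How the authors' counting treated reads in shared bases is not given in the sources used here. Of the GENCODE 29 model, 1835 exon bases (26.3%) were free of same-strand overlap. The 0 for IGF2 can therefore not be read as absence of its RNA. IGFBP5 (ENSG00000115461, minus strand of chromosome 2, 216672105 to 216695549) also had 0 reads, which allows up to 0.0273 to 0.0355 FPKM. IGFBP5 binds to extracellular matrix, and only 4.63% of its exon bases overlap another annotated gene, on the opposite strand. IGFBP2 (ENSG00000115457, plus strand of chromosome 2, 216632828 to 216664436) had 1 read, in shNUF2 library 1, and shares no exon base with another gene. IGFBP2 and IGFBP5 are neighbours 7.67 kb apart with no listed gene between them, and no difference between the groups was detectable for either at this depth.

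The order of the 6 detected genes by mean FPKM was the same in both groups, from IGFBP3 through IGFBP4, IGFBP6, IGFBP1 and IGFBP7 to IGF2R. With shNC, IGFBP3 was 2.58-fold above IGFBP4, IGFBP4 2.96-fold above IGFBP6, IGFBP6 1.30-fold above IGFBP1 and IGFBP1 3.11-fold above IGFBP7. IGFBP7 and IGF2R differed by 1.11-fold with shNC and their libraries overlapped. With shNUF2, IGFBP3 was 4.90-fold above IGFBP4, and the other steps were 1.85-fold, 1.87-fold, 2.73-fold and 1.47-fold. No neighbours in that order overlapped with shNUF2. These are levels per length and were compared without a test.

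The FPKM summed over the IGFBP genes was 614, 526 and 571 in the shNC libraries and 1171, 1062 and 1085 in the shNUF2 libraries. IGFBP3 made up 60.5% ± 2.28 of this sum with shNC and 71.7% ± 1.55 with shNUF2 (SD, n = 3 in each group). The share of IGFBP4 was 23.5% ± 1.15 with shNC and 14.6% ± 0.761 with shNUF2, although IGFBP4 itself rose. IGFBP6 kept nearly the same share, with 7.94% ± 0.555 and 7.91% ± 0.217. IGFBP1 made up 6.10% ± 0.699 and 4.25% ± 0.538, and IGFBP7 1.96% ± 0.514 and 1.55% ± 0.242. The share of IGFBP3 was higher, and that of IGFBP4 lower, in every shNUF2 library than in any shNC library, without a test.

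**Figure D3:**
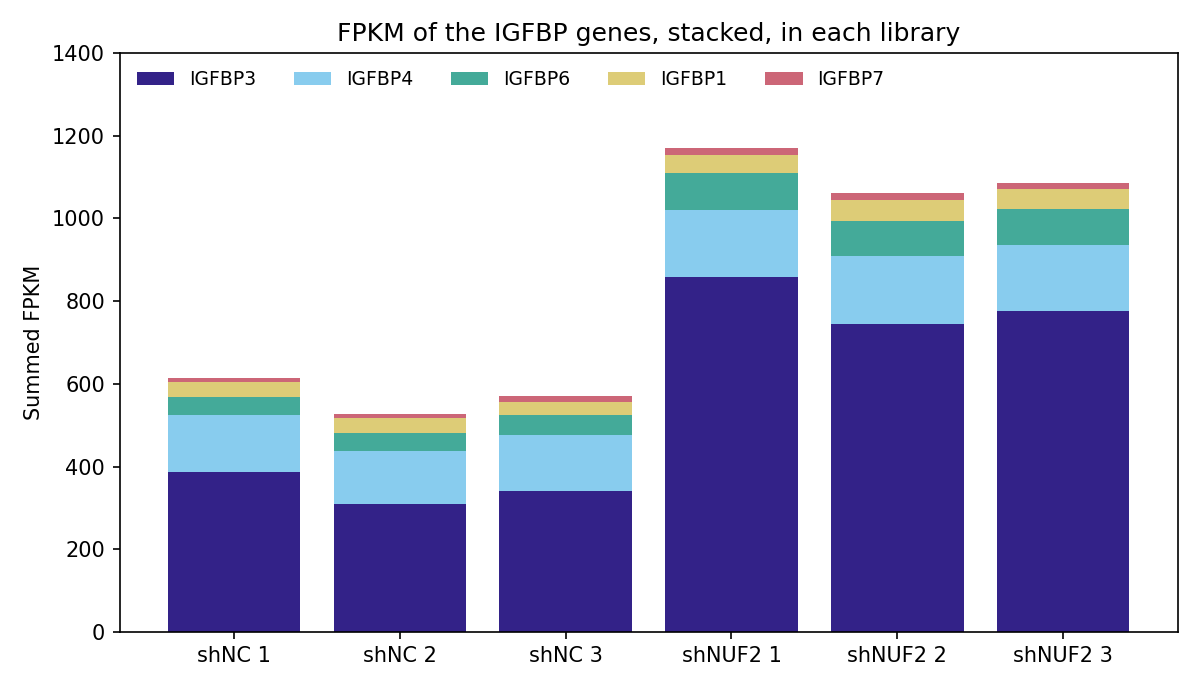
FPKM of the 5 detected IGFBP genes stacked in each library, from IGFBP3 at the base to IGFBP7 at the top; the height is the summed FPKM. The shNC sums lie between 526 and 614 and the shNUF2 sums between 1062 and 1171, with most of the difference in the IGFBP3 segment.

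Ratios of reads within a library do not depend on its scaling. The reads of IGFBP3 per read of IGFBP4 were 5.34 ± 0.470 with shNC and 10.2 ± 0.747 with shNUF2, a log2 change of 0.93. The reads of IGFBP6 per read of IGFBP4 were 0.206 ± 0.0110 and 0.330 ± 0.0106, a log2 change of 0.68. The ratio of IGFBP3 to IGFBP1 was 27.9 ± 3.62 and 47.6 ± 7.51, and that of IGFBP3 to IGFBP6 was 26.0 ± 2.67 and 30.8 ± 1.49. In each of these 4 ratios the shNUF2 libraries lay above the shNC libraries. The exact two-sided permutation test gave p = 0.10 for each and 0.10 after Benjamini-Hochberg adjustment over the 4, which is the smallest p that 3 libraries against 3 can give. The 4 ratios were chosen after the gene values were known.

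The genes whose profile over the 6 libraries was nearest to that of each tested gene were found by the root mean square difference of centred log2 CPM, with 0.5 CPM added to each value. The nearest to IGFBP3 was NPC2, a lysosomal cholesterol carrier gene, at a difference of 0.026 and with a log2 fold change of 1.25. The nearest to IGFBP6 was MAPRE3, a microtubule end-binding protein gene, at 0.0335. IGF2R was nearest to SLMAP at 0.0121, IGFBP4 to the RNA surveillance helicase gene UPF1 at 0.0153 and IGFBP1 to the zinc finger gene ZNF330 at 0.034. For IGFBP7 the nearest was MEOX1, at 0.0664, but MEOX1 was at about 1 CPM or below in every library and its log2 fold change was 1.15 against 0.64 for IGFBP7. At that level the added 0.5 CPM flattens a profile, so the match is not one of measured fold changes. These likenesses are descriptions over 6 libraries in 2 groups.

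The other genes of the IGF system were taken from 6 groups of 58 genes, of which 56 were listed in the table and 44 were tested. Of the 44, 24 rose (54.5%), 11 fell (25.0%) and 9 did not pass the test, with a median log2 fold change of 0.18, beside 33.9% that rose and 33.8% that fell of all genes tested. The groups had been chosen with earlier results of these data known.

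Among the 5 ligand and receptor genes, IGF1 and INS, which encode the other ligands, had 0 reads in every library. IGF1R, the signaling receptor for both IGFs, had 95.2, 96.2 and 92.5 CPM with shNC and 148, 146 and 143 CPM with shNUF2. It rose by a log2 fold change of 0.62 (SE 0.05, edgeR adjusted p = 5.76e-12). INSR, the insulin receptor, which also binds IGF2 as its A isoform, fell from 90.0 to 70.5 CPM (log2 fold change -0.35, SE 0.05, edgeR adjusted p = 1.94e-06). The receptor genes IGF1R and INSR, of similar CPM with shNC, therefore moved in opposite directions. INSRR, a receptor of the insulin receptor family, rose from 1.27 to 2.94 CPM (log2 fold change 1.20, SE 0.32, edgeR adjusted p = 0.00153), and the log2 fold change was 0.93 without shNC replicate 2.

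Of the 8 tested adaptor genes, which link the receptors to PI3K and MAPK signaling or restrain them, 5 rose and 1 fell. IRS2, a docking protein for PI3K, rose from 128 to 312 CPM (log2 fold change 1.29, SE 0.04, edgeR adjusted p = 3.67e-19). GRB10, an adaptor that restrains insulin and IGF receptor signaling, rose from 69.4 to 124 CPM (log2 fold change 0.84, SE 0.05, edgeR adjusted p = 2.50e-13). SOCS2, a suppressor of growth hormone signaling, rose from 20.6 to 42.6 CPM (log2 fold change 1.05, SE 0.09, edgeR adjusted p = 3.86e-11).

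Of the 7 tested genes of IGFBP proteases, their inhibitors and the acid-labile subunit, 4 rose and 1 fell. STC1, which encodes stanniocalcin 1, an inhibitor of PAPP-A, had read counts of 649, 602 and 627 under shNC, against 2934, 2311 and 2764 under shNUF2. It rose by a log2 fold change of 2.28 (SE 0.07, edgeR adjusted p = 1.29e-19), and every shNUF2 library was far above every shNC library. PAPPA itself, the protease of IGFBP4, had 6.35 CPM with shNC and 5.44 CPM with shNUF2 (log2 fold change -0.23, SE 0.18, edgeR adjusted p = 0.256). STC2 of the same group, more abundant than STC1, rose from 270 to 295 CPM (log2 fold change 0.12, SE 0.04, edgeR adjusted p = 0.00923). ADAM12 had 48.3 CPM with shNC and 47.3 CPM with shNUF2, and did not pass the test (log2 fold change -0.03, edgeR adjusted p = 0.70). PAPPA, STC2 and ADAM12 were named after their values were seen. HTRA1, a secreted serine protease that can cleave IGFBP5, fell from 43.9 to 20.6 CPM (log2 fold change -1.09, SE 0.08, edgeR adjusted p = 1.03e-11). ADAM28, a metalloprotease that can cleave IGFBP3, had read counts of 11, 0 and 13 under shNC, against 28, 24 and 29 under shNUF2 (log2 fold change 1.93, SE 0.49, edgeR adjusted p = 0.00105). DESeq2 gave ADAM28 an adjusted p of 0.092, and its log2 fold change was 1.34 without shNC replicate 2, the library with 0 reads, and 2.38 without shNC replicate 3.

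Of the 8 tested genes for other proteins with an IGFBP domain, 4 rose and 3 fell. CCN1, a matricellular protein gene, had 99.1, 119 and 110 CPM with shNC and 412, 458 and 411 CPM with shNUF2 (log2 fold change 1.96, SE 0.06, edgeR adjusted p = 9.59e-21). CCN2, also known as CTGF, rose by a log2 fold change of 1.17 (SE 0.10, edgeR adjusted p = 4.10e-11) and CCN3 rose by 1.08 (SE 0.17, edgeR adjusted p = 3.32e-06). CCN5, which lacks the C-terminal domain of the other CCN proteins, fell from 361 to 212 CPM (log2 fold change -0.77, SE 0.04, edgeR adjusted p = 2.52e-14). CCN4 did not pass the test (log2 fold change -0.51, edgeR adjusted p = 0.152), and CCN6, with at most 6 reads in a library, was not tested. CCN3 was below 1 without shNC replicate 2 (0.98), without shNUF2 replicate 2 (0.99) and on log2(FPKM + 1) (0.75).

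Of the 8 tested regulators and neighbours of IGF2, 5 rose and 3 fell. HMGA2, an architectural chromatin protein gene, had 6.47, 5.51 and 6.22 CPM with shNC and 38.8, 37.3 and 38.2 CPM with shNUF2 (log2 fold change 2.65, SE 0.11, edgeR adjusted p = 1.20e-17). PLAG1, a zinc finger activator of IGF2 transcription, rose from 3.18 to 12.9 CPM (log2 fold change 2.04, SE 0.20, edgeR adjusted p = 1.19e-09). PLAGL1, an imprinted relative of PLAG1, rose by a log2 fold change of 0.66 (SE 0.06, edgeR adjusted p = 5.90e-11). CTCF (log2 fold change -0.48), IGF2BP1 (-0.16) and IGF2BP3 (-0.14) fell, and were named after their values were seen. The IGF2 row had 0 reads in the same libraries. As said above, that 0 cannot be read as absence of IGF2 RNA.

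Of the 10 tested genes of mannose 6-phosphate sorting, the pathway in which IGF2R carries lysosomal enzymes, 4 rose, 2 fell and 4 did not pass the test, and none was beyond a log2 fold change of 1. GGA2, an adaptor that sorts mannose 6-phosphate receptors at the Golgi, rose from 92.3 to 134 CPM (log2 fold change 0.54, SE 0.05, edgeR adjusted p = 1.49e-10). VPS29, a retromer subunit that returns these receptors from endosomes, fell from 104 to 70.4 CPM (log2 fold change -0.56, SE 0.05, edgeR adjusted p = 5.49e-10). M6PR, the cation-dependent mannose 6-phosphate receptor gene and the functional partner of IGF2R, rose from 64.5 to 74.2 CPM (log2 fold change 0.20, SE 0.06, edgeR adjusted p = 0.0054). M6PR was named after its values were seen. Its fold change was close to that of IGF2R, at 0.26, and the difference was not tested.

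**Figure D4:**
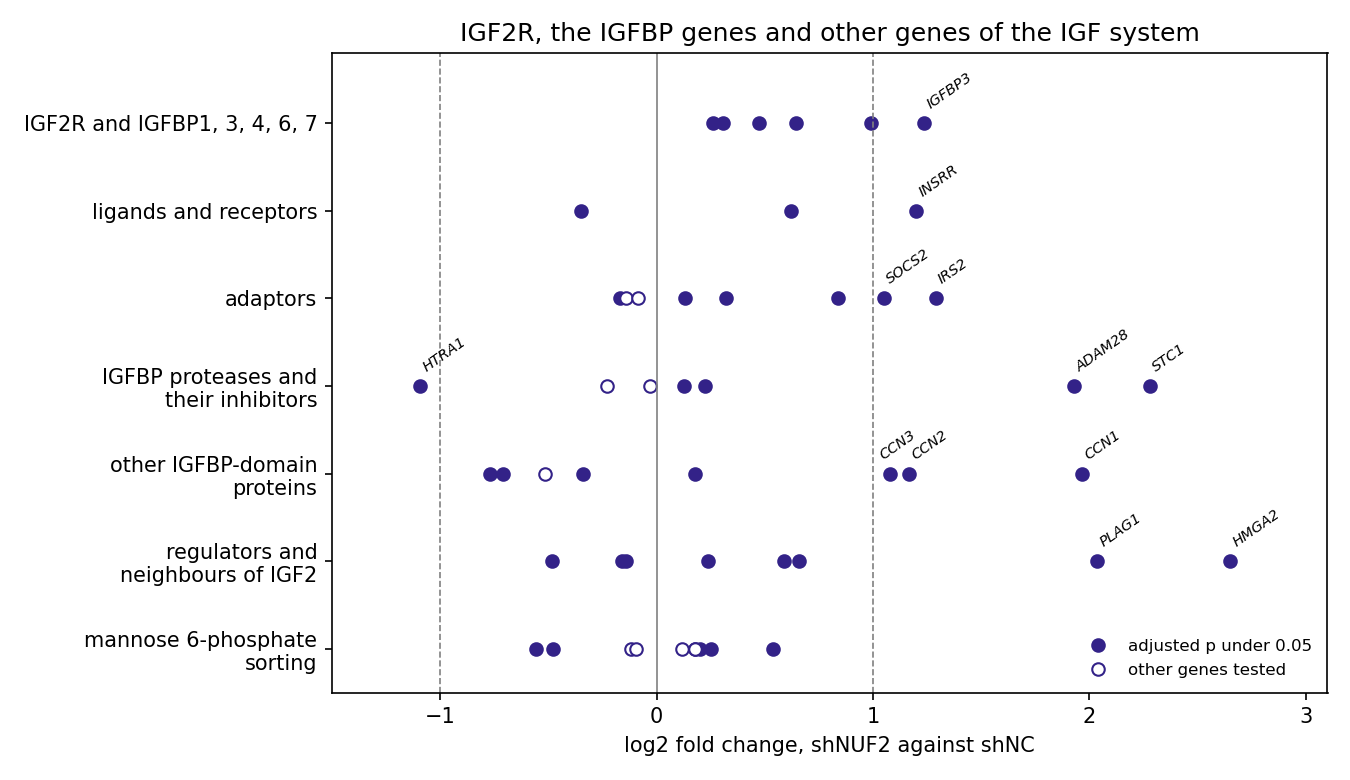
Log2 fold change of shNUF2 against shNC for the 6 tested IGF2R and IGFBP genes and for the 44 tested genes of 6 other groups of the IGF system, with filled points for an adjusted p under 0.05 and names at genes beyond 1 or -1 (dashed lines). All 6 points of the top line are filled and above 0, whereas each of the other lines holds points on both sides of 0.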

How the data were processed

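The authors prepared stranded mRNA libraries from 1.5 μg of total RNA of OVCAR3 cells and sequenced them on a NovaSeq instrument. The submitters' processing notes name cutadapt, HISAT, HTSeq and GRCh38.p13. Counting mode and strand setting are not given in the sources used here. The deposited read counts were not normalized. The deposited FPKM were proportional to the count over gene length and library total (relative deviation at most 2.71e-07). FPKM were used for levels between genes and counts for tests.

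Groups came from the sample labels. The test was that of edgeR 4.0.16 under R 4.3.3 (filterByExpr, TMM, quasi-likelihood test, 6 libraries in one fit, no block), with Benjamini-Hochberg adjustment over 12874 genes. SE is the log2 fold change over the square root of F. The common biological coefficient of variation was 4.93%. CPM were taken on TMM-scaled library sizes. DESeq2 1.42.0 and limma 3.58.1 served as alternatives. With 3 libraries a group, an exact permutation test cannot go below p = 0.10. Only the model fits were tested on simulated counts, with few genes changed, each by a fixed amount. Small fold changes, and scaling where many genes change, were not tested in this way.

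The 9 genes, the gene groups and the tests were chosen with earlier results of these data known. Named by rule were the 9 genes, NUF2, overlapping rows and the nearest gene in profile. Of each group, genes beyond the study's thresholds and the 2 with the smallest p were named. Outside this rule, IGF1, INS, PAPPA, STC2, ADAM12, CCN4, CCN6, CTCF, IGF2BP1, IGF2BP3 and M6PR were named. Those thresholds were read on the log2 scale. Markers were listed by cell type. Promoter sequences are from RefSeq (GRCh38.p14), exon overlaps from GENCODE 29 and the hairpin target from the study's list of hairpins. Limits for a count of 0 (3 reads) cover counting error only.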

Additional observations from a re-analysis of the deposited data

How the results depend on the processing

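In all 15 alternative fits, which were other scalings, filters and tools, FPKM on a log scale, the replicate block and 6 fits that each left out 1 library, the 6 tested genes stayed higher with shNUF2 at an adjusted p under 0.05, and 0 fold changes reversed. The number beyond a log2 fold change of 1 was 1, also with adjusted in place of unadjusted p, and it became 2, with IGFBP6, under at least 1 CPM in every library and between 1 and 2 when a library was left out (2 without shNC replicate 3 or shNUF2 replicate 2). With 1 library left out, IGFBP3 ranged from 1.16 to 1.33, IGFBP7 from 0.52 to 0.87 and IGF2R from 0.22 to 0.28. The highest adjusted p of IGFBP7 was 0.00914, with DESeq2. Scaling by library totals moved the median of all genes most among the scalings, by -0.04. The call of ADAM28 was lost with DESeq2 (log2 fold change 1.95, adjusted p 0.092), and the cause was not tested. On log2(FPKM + 1), which understates low genes, ADAM28 was 0.19, INSRR 0.32, CCN3 0.75, SOCS2 0.83, PLAG1 0.89 and HMGA2 1.31. ADAM28 and INSRR had no value under at least 1 CPM in every library.

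Deviations from the group means were not shared by same-numbered libraries (correlations of 0.02, 0.00 and -0.03), so the numbers were not taken as pairs. With the replicate block, 6 genes were higher, IGFBP3 had a log2 fold change of 1.24 and IGFBP6 of 0.99. Depth limits the statements on IGFBP2 and IGFBP5, exon bases shared with other gene models limit that on IGF2, and the 3 libraries a group limit every ratio.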
